A study of Arabidopsis thaliana with 12 samples.

Results

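A set of 10 brassinosteroid genes was followed in dark-grown Arabidopsis thaliana seedlings that either stayed in darkness or received red light. Members were chosen by locus, and are BEE1, BEE2, BEE3, BRI1, BZR1, BES1, DWF4, CPD, BAS1 and BR6OX2, which is 10 of the 33655 genes in the deposited count table, and all 10 had enough counts to be tested among 18487 genes. Whole seedlings were either wild type, of the accession Col-0, or carried mutations in both B''α and B''β (b''ab''b, the double mutant), which encode regulatory subunits of the phosphatase PP2A. All seeds had 3 days of cold, 3 h under white light (25 µmol of photons per square metre and second) and then 4 days of darkness at 22 °C on medium without sucrose. The dark groups were kept as they were, and the red groups were exposed for 1 h to red light without a break, at 8 µmol in the same unit, with 3 libraries in each of the 4 groups.

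Brassinosteroids are plant steroid hormones that promote cell elongation and keep dark-grown seedlings in their tall, closed form. The P450 enzymes DWF4, CPD and BR6OX2 act in synthesis, and BAS1 is a P450 that inactivates the active hormones. BRI1 is the receptor kinase at the cell surface, and its signal leads to dephosphorylation of the transcription factors BZR1 and BES1, a step carried out by PP2A. Transcript levels do not measure that step, and whether B''α or B''β takes part in it was not tested. BEE1, BEE2 and BEE3 are basic helix-loop-helix (bHLH) factors named as early genes that the hormone enhances.

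The libraries were 3′ tags, in which a read comes from near the end of a transcript, so levels are given as CPM, counts relative to the scaled size of the library, without division by length and are compared within a gene only. Totals ran from 2874429 to 4979055 counts per library, so that the floor set by a count of 0 (an upper limit of 3 counts, for counting error only) lay at 0.603 to 1.04 CPM. For the mutated B''α gene (AT5G44090), levels of 24.4 to 31.2 CPM were found across wild type libraries, against 3.88 to 6.29 CPM with the mutations. B''β (AT1G03960) had 8 to 20 counts in wild type libraries and 3 to 9 in double mutant libraries. The sources used here do not give the mutated sites, so these tags may lie outside the disrupted parts. The summed level of PORA and PORB, genes expressed in dark-grown seedlings, was 3914 to 4183 CPM in the dark libraries and 2364 to 2955 CPM in the red light libraries. Group means of PORA alone were 2000 CPM in the dark and 1330 CPM in red light in the wild type. In the double mutant they were 1945 and 1220 CPM. Summed dry seed markers (4 genes, none at 0 in every library of a group) reached 39.3 CPM in 1 dark double mutant library and at most 16.3 CPM in the red light libraries of that genotype. Over all libraries epidermis markers summed to 461 to 526 CPM, root hair markers to 8.27 to 18.5 CPM and markers of dividing cells to 18.4 to 25.5 CPM, with none at 0 throughout a group. The part of these shifts in the results was not tested. Wild type dark replicate 1 and double mutant dark replicate 3 stood apart from their replicates, with a chi-square per degree of freedom of 3.01 to 4.01 against them, while the other pairs of replicates had 1.54 to 2.07. Results that end without these 2 libraries are said to do so. In whole seedlings fewer cells of a type and less RNA per cell cannot be told apart, and the labels do not say whether replicates were grown separately, so the p-values speak only of scatter among these libraries, part or all of which could be technical.

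The 250 bases before the annotated start of 5 members are shown. BEE3, BAS1 and BR6OX2 were called in both genotypes, without overlap of dark and red light libraries in either. BEE1 and BZR1 alone held a G-box. BEE2 was also called in both genotypes, but its libraries overlapped in the double mutant, and its window is not shown. Sequences are from the RefSeq copy of TAIR10.1, read 5′ to 3′ on the strand of the gene. Capitals mark the G-box CACGTG, a site class of bHLH and bZIP factors, and CGTGTG or CGTGCG, the response elements (BRRE) known for BZR1, in either orientation.
BEE3 (chr1:27759691-27759940, plus strand): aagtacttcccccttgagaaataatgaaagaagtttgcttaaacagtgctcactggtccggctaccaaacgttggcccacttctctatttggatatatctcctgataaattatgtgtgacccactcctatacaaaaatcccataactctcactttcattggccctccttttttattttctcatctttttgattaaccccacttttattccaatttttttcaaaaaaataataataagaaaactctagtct
BAS1 (chr2:11380213-11380462, plus strand): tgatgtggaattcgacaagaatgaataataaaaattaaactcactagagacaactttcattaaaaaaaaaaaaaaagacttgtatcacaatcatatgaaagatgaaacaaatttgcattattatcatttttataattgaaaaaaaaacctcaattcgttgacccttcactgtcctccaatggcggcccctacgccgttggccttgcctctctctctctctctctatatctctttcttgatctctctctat
BR6OX2 (chr3:11810476-11810725, plus strand): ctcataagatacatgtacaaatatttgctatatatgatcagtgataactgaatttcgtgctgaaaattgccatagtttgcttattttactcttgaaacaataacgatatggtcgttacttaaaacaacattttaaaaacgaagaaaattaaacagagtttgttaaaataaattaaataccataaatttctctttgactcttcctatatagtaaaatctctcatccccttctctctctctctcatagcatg
BEE1 (chr1:6331148-6331397, plus strand): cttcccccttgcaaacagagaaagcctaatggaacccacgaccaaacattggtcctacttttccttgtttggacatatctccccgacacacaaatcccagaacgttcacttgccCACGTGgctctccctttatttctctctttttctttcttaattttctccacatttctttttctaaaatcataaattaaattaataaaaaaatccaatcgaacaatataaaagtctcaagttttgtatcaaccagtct
BZR1 (chr1:28185254-28185503, plus strand): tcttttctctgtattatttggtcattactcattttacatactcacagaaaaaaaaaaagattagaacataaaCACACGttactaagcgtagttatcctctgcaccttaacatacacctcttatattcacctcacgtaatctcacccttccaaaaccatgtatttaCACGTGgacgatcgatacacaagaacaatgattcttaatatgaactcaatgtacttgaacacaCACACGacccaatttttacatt

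The G-box was in 2 of 10 members, beginning 136 bases before the start of BEE1 and 85 bases before that of BZR1, against 6.49% of 27437 windows of the same length before protein-coding genes. A BRRE was in 1 of 10 members, BZR1, which held 2 of them, 178 and 22 bases before its start, against 6.71% of all windows. The looser E-box CANNTG, which includes the G-box, was in 8 of 10 members and in 55.3% of windows, and the windows of BEE3 and BR6OX2 held none of these motifs. A match is a description of letters in this window and no evidence of binding. The BEE1 and BEE3 windows shared a run of 11 bases (the first 11 of the BEE1 window), while runs in other pairs of members reached 14. They matched in 52.7% of aligned columns, close to the 52.2% of the next of the 45 pairs of members, the median of the other pairs being 46.95%.

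In red light BEE3 and the inactivation gene BAS1 fell, and BEE2 and the late synthesis gene BR6OX2 rose, in both genotypes. In the wild type 5 of 10 members were called by edgeR at an adjusted p under 0.05, 2 higher and 3 lower, where 15.2% of all tested genes were called (10.6% higher and 4.68% lower). In the double mutant 4 of 10 were called, 2 higher and 2 lower, where 16% of all genes were called (10.7% higher and 5.27% lower). The median log2 change of the 10 members was 0.05 in the wild type and 0.02 in the double mutant, beside −0.02 and −0.01 over all tested genes. Over both genotypes together 5 of 10 were called, 2 higher and 3 lower, where 24.9% of all genes were (14.9% higher and 9.97% lower). No member passed the test between the genotypes, in the dark, in red light or in its response.

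**Figure D1:**
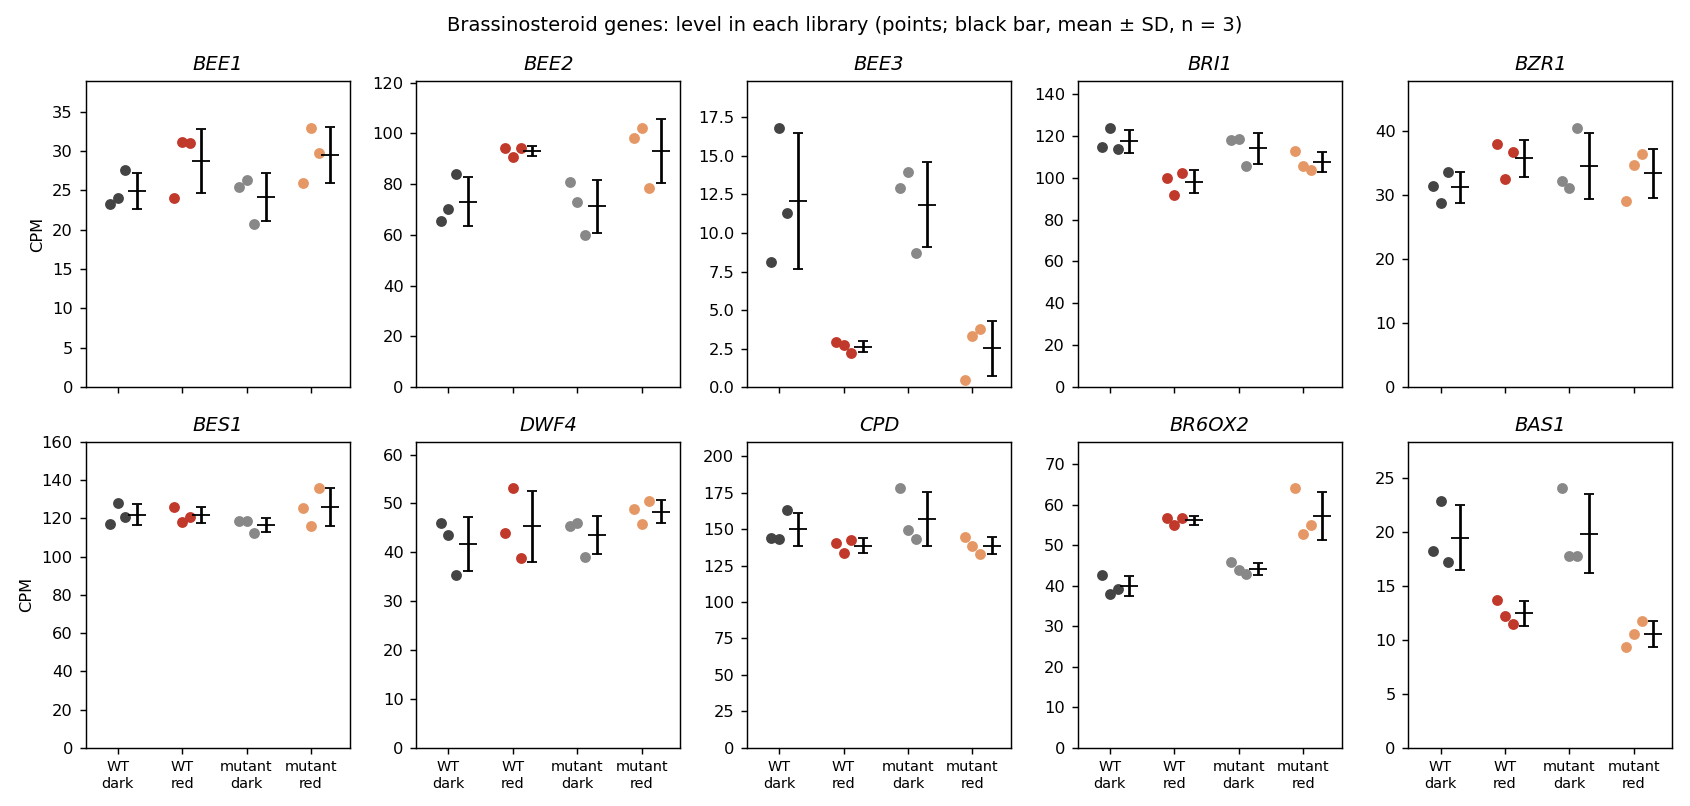
Level of the 10 members in CPM (vertical axes, from 0, a scale for each gene) in the 4 groups; points are libraries and black bars the mean ± SD (n = 3). BEE3 falls from a mean of 12.1 to 2.63 CPM in the wild type and from 11.8 to 2.51 CPM in the double mutant, while BES1 lies between 113 and 136 CPM in all 12 libraries.

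BEE3 (AT1G73830, chromosome 1, 27759941 to 27761588 in TAIR10.1), a bHLH factor that promotes growth, showed the largest change of the 10 members. Its wild type libraries held 8.09, 16.8 and 11.3 CPM in the dark and 2.94, 2.71 and 2.25 CPM in red light. In the double mutant it stood at 12.9, 13.9 and 8.69 CPM in the dark and at 0.458, 3.32 and 3.74 CPM in red light. Every red light library of either genotype lay below every dark library. The fall was 4.47-fold in the wild type (log2 −2.16 ± 0.38 SE, 95% interval −2.95 to −1.37, n = 3 per group, edgeR adjusted p = 1.93e-04) and 4.75-fold in the double mutant (−2.25 ± 0.39, −3.05 to −1.44, edgeR adjusted p = 1.39e-04). These levels rest on 36 to 62 counts per dark library and 2 to 15 per red light library, and the lowest, in double mutant red replicate 1, is below the 3 counts that a count of 0 allows. The 2 dark libraries that stood apart had the lowest dark values of their groups, and without them the change was −2.41 in the wild type and −2.45 in the double mutant (edgeR adjusted p = 4.07e-07 and 4.10e-07).

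BEE2 (AT4G36540, chromosome 4, 17243583 to 17245296) moved the other way by a smaller amount. It was at 65.3, 70.05 and 83.9 CPM in the wild type dark libraries and at 94.3, 90.8 and 94.2 CPM in red light. The double mutant libraries held 80.7, 72.8 and 60.02 CPM in the dark and 98.0, 102 and 78.6 CPM in red light. The groups did not overlap in the wild type and overlapped in the double mutant, where red replicate 3 lay below dark replicate 1. The rise was 1.28-fold in the wild type (log2 0.36 ± 0.11 SE, edgeR adjusted p = 0.0345) and 1.32-fold in the double mutant (0.40 ± 0.11, edgeR adjusted p = 0.0178). Both calls ended without the 2 dark libraries that stood apart (0.28 and 0.29, edgeR adjusted p = 0.0572 and 0.0510). The wild type call also ended with DESeq2 (adjusted p = 0.0515) and without wild type dark replicate 1 or 2 or any of the 3 wild type red libraries (edgeR adjusted p = 0.0603 to 0.148). The double mutant call also ended without dark replicate 3 or red replicate 1 or 2 of that genotype (edgeR adjusted p = 0.0885 to 0.117). Over both genotypes together BEE2 rose by 0.38 ± 0.08 (edgeR adjusted p = 9.63e-04), a call kept in all 18 alternatives.

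BEE1 (AT1G18400, chromosome 1, 6331398 to 6333856), the third factor of this name, ran from 20.7 to 27.6 CPM in the 6 dark libraries and from 24.0 to 33.0 CPM in the 6 red light libraries. Its log2 change was 0.21 ± 0.14 in the wild type (95% interval −0.08 to 0.51, edgeR adjusted p = 0.372) and 0.29 ± 0.14 in the double mutant (edgeR adjusted p = 0.188). Over both genotypes it was 0.25 ± 0.10 (edgeR adjusted p = 0.0682), a value without a call that passed in 5 of 18 alternatives (edgeR adjusted p = 0.0291 to 0.0489 in those). The intervals of BEE1 and BEE3 did not meet in either genotype, so the 3 BEE genes did not share 1 response.

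The hormone-inactivating gene BAS1 (AT2G26710, chromosome 2, 11380463 to 11383821) fell in both genotypes. Wild type libraries held 18.3, 22.9 and 17.2 CPM in the dark and 13.7, 12.2 and 11.5 CPM in red light. Double mutant libraries held 24.1, 17.75 and 17.77 CPM in the dark and 9.39, 10.5 and 11.7 CPM in red light. Dark and red light libraries did not overlap in either genotype. BAS1 was 1.56-fold lower in the wild type (log2 −0.64 ± 0.17 SE, edgeR adjusted p = 0.0107) and 1.85-fold lower in the double mutant (−0.89 ± 0.18, edgeR adjusted p = 6.85e-04). The wild type call ended without wild type dark replicate 2 (−0.51, edgeR adjusted p = 0.0786) or wild type red replicate 3 (−0.58, edgeR adjusted p = 0.0610).

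BR6OX2 (AT3G30180, chromosome 3, 11810726 to 11813883), which completes the synthesis of castasterone and brassinolide, rose in both genotypes. It stood at 42.8, 38.1 and 39.1 CPM in wild type dark libraries and at 56.8, 54.99 and 56.9 CPM in red light. Double mutant libraries held 45.8, 43.8 and 43.04 CPM in the dark and 64.1, 52.9 and 54.9 CPM in red light. All 6 red light libraries lay above all 6 dark libraries. The rise was 1.40-fold in the wild type (log2 0.49 ± 0.10 SE, edgeR adjusted p = 0.00114) and 1.30-fold in the double mutant (0.38 ± 0.10, edgeR adjusted p = 0.00834). Without double mutant red replicate 1 the call in that genotype ended (0.29, edgeR adjusted p = 0.0855).

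The synthesis genes DWF4 and CPD had no call. DWF4 (AT3G50660, chromosome 3, 18813949 to 18817405), the 22-hydroxylase regarded as rate-limiting, ran from 35.4 to 46.1 CPM in the dark and from 38.9 to 53.1 CPM in red light. Its log2 change was 0.10 ± 0.12 in the wild type (95% interval −0.16 to 0.36) and 0.16 ± 0.12 in the double mutant (−0.10 to 0.41). CPD (AT5G05690, chromosome 5, 1702640 to 1706948), which acts after DWF4, ran from 143 to 178 CPM in the dark and from 133 to 144 CPM in red light. Its change was −0.11 ± 0.09 in the wild type and −0.17 ± 0.09 in the double mutant (edgeR adjusted p = 0.478 and 0.217). Wild type libraries of CPD did not overlap, with 144, 143.1 and 163 CPM in the dark and 140.4, 133 and 142.5 CPM in red light, so that the nearest values all but met. In all, 2 members lay higher and 4 lower without overlap in the wild type, where 16.5% and 13.6% of all tested genes did. In the double mutant 1 lay higher and 2 lower, where 17% and 13.3% did.

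The receptor gene BRI1 (AT4G39400, chromosome 4, 18324457 to 18328831) fell slightly in the wild type. Its wild type libraries held 115, 124 and 114 CPM in the dark and 99.96, 91.8 and 102 CPM in red light, without overlap. Double mutant libraries held 118, 119 and 105 CPM in the dark and 113, 106 and 104 CPM in red light, and these overlapped. The change was −0.26 ± 0.08 in the wild type (1.20-fold lower, edgeR adjusted p = 0.0341) and −0.08 ± 0.08 in the double mutant (edgeR adjusted p = 0.586). Over both genotypes together the BRI1 change was −0.17 ± 0.06 (edgeR adjusted p = 0.0339). That call ended in 8 of 18 alternatives (adjusted p = 0.0647 to 0.0976), among them DESeq2 (0.0647) and no filter on low counts (0.0854). The wild type call ended in 10 of 19 alternatives (adjusted p = 0.0506 to 0.158), among them DESeq2 (0.0732), no filter on low counts (0.0778), a fit of the wild type groups alone (0.0580) and the omission of any of 6 single libraries: wild type dark replicates 1, 2 and 3, wild type red replicates 1 and 2, and double mutant red replicate 3. The difference between the BRI1 responses was 0.18 ± 0.12 and did not pass (edgeR adjusted p = 1.0000).

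The transcription factor genes at the end of the pathway had no call. BZR1 (AT1G75080, chromosome 1, 28185504 to 28188075) ran from 28.7 to 40.5 CPM in the dark and from 29.1 to 38.0 CPM in red light, with a change of 0.20 ± 0.13 in the wild type and −0.07 ± 0.13 in the double mutant (edgeR adjusted p = 0.358 and 0.802). BES1 (AT1G19350, chromosome 1, 6688463 to 6691216) ran from 113 to 128 CPM in the dark and from 116 to 136 CPM in red light. Its 95% interval was −0.17 to 0.16 in the wild type and −0.05 to 0.28 in the double mutant. BES1 overlaps the gene RRA3 on the other strand by 818 bases, BZR1 overlaps AT1G75090 by 629 bases and CPD overlaps MOS7 by 20 bases. The sources used here do not say whether counting used strand or how reads in an overlap were treated. Whether such reads went to the member, went to its partner or were set aside cannot be told. RRA3 had at most 197 counts in a library and AT1G75090 at most 19.

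**Figure D2:**
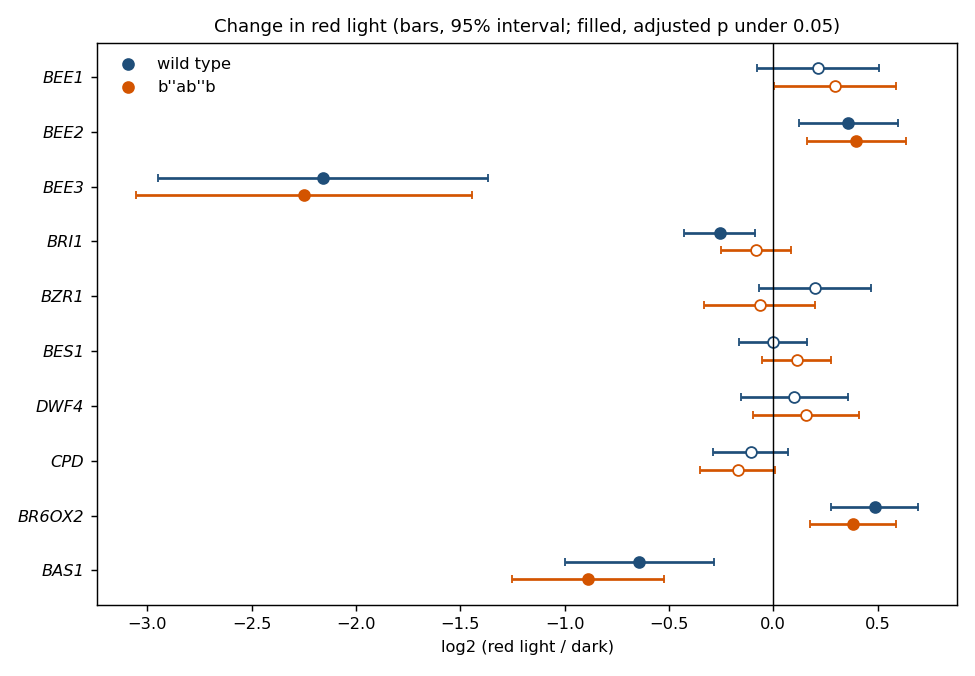
Log2 change from darkness to red light (horizontal axis) of the 10 members in the wild type and in b''ab''b; bars are 95% intervals of the edgeR fit and filled points have an adjusted p under 0.05. BEE3 lies at −2.16 and −2.25, BAS1 at −0.64 and −0.89, and the other 8 members lie between −0.26 and 0.49.

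None of the 10 transcripts passed the test between the genotypes. In the dark 0 of 10 members were called by edgeR between the double mutant and the wild type (0 at an unadjusted p under 0.05, 0 by DESeq2), where 0.0541% of all genes were called. In red light 0 of 10 were called (0 unadjusted, 0 by DESeq2), where 0.0811% of all genes were. At an unadjusted p under 0.05 in edgeR, 743 of all 18487 genes passed in the dark and 849 in red light. At such shares few or none of 10 genes would pass, so these counts of 0 are no result about the members. Log2 differences ran from −0.06 for BES1 to 0.16 for BZR1 in the dark and from −0.24 for BAS1 to 0.13 for BRI1 in red light. For the 9 members other than BEE3 the 95% intervals stayed between −0.35 and 0.43 in the dark and between −0.63 and 0.35 in red light, so that differences of over 1.55-fold lie outside all of them. BEE3, with its few counts, was less well bounded, from −0.63 to 0.60 in the dark and from −1.15 to 0.94 in red light. Libraries of the genotypes did not overlap for BR6OX2 in the dark (43.04 to 45.8 CPM in the double mutant, 38.1 to 42.8 CPM in the wild type), where 8.81% of all genes did not overlap. In red light they did not overlap for BRI1 (104 to 113 CPM in the double mutant, 91.8 to 102 CPM in the wild type), where 11.1% of all genes did not.

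**Figure D3:**
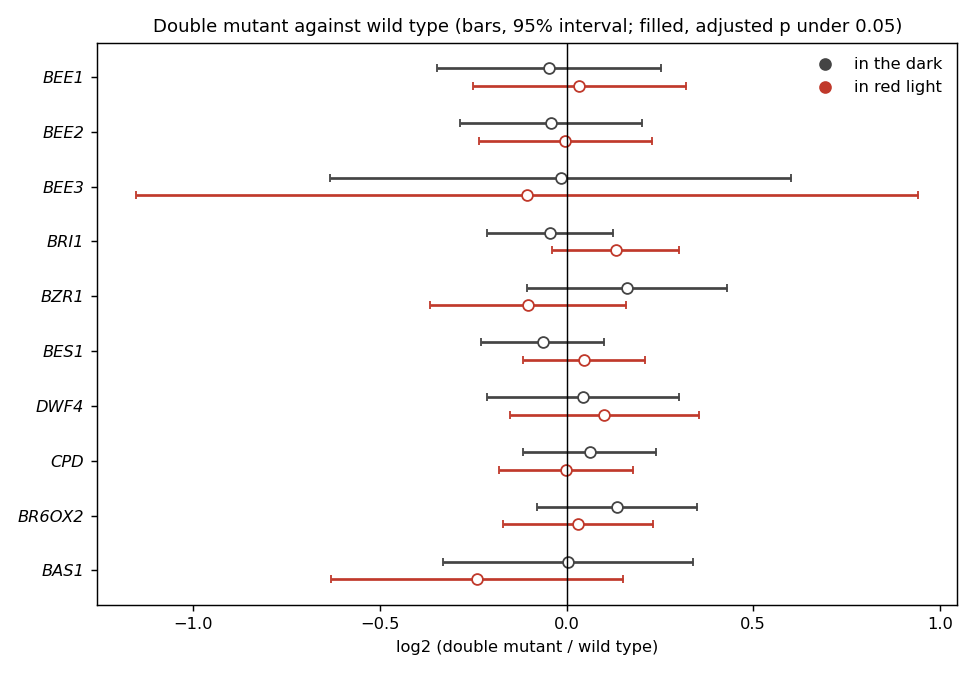
Log2 difference between b''ab''b and the wild type (horizontal axis) for the 10 members in the dark and in red light; bars are 95% intervals of the edgeR fit and open points did not pass an adjusted p under 0.05. Every interval includes 0, and that of BEE3 in red light is the widest (−1.15 to 0.94).

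The test of whether the red light response itself differed between the genotypes called 0 of 10 members (0 at an unadjusted p under 0.05, 0 by DESeq2) and 0% of all genes. Of all 18487 genes 613 passed an unadjusted p under 0.05 in edgeR, so few or none of 10 would at that share. The differences of the responses ran from −0.27 ± 0.18 for BZR1 to 0.18 ± 0.12 for BRI1. For the 9 members other than BEE3 the intervals stayed between −0.76 and 0.50, and for BEE3 the interval was −1.30 to 1.12.

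The order of the 4 group means is a description. Where a gene was called in both genotypes, both dark groups lay on the same side of both red groups. The calls themselves make that order likely, so it is no separate result. For BEE3 and BAS1 both dark groups were highest, with the wild type first for BEE3 and the double mutant first for BAS1, followed by wild type red and double mutant red. The only neighbours without overlap were the lowest dark and the highest red group. For BR6OX2 both red groups were highest, followed without overlap by the double mutant dark (44.2 CPM) and, again without overlap, the wild type dark group (39.98 CPM). For BRI1 double mutant red lay above wild type red without overlap, and for CPD wild type dark above wild type red. For BEE1, BEE2, BZR1, BES1 and DWF4 all neighbouring groups overlapped.

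Other genes of the pathway were taken from 5 lists with 54 genes, of which 47 had enough counts to be tested. In the wild type 4 of these 47 rose and 6 fell, and in the double mutant 4 rose and 5 fell. Over all tested genes 10.6% rose and 4.68% fell in the wild type, and 10.7% rose and 5.27% fell in the double mutant. The lists' median log2 changes were −0.04 and −0.10, beside −0.02 and −0.01 over all tested genes. Over both genotypes together 6 of the 47 rose and 9 fell, where 14.9% and 9.97% of all tested genes did. By list, 0 of 9 synthesis genes and 3 of 5 inactivation genes rose, and 0 fell in either. Of 14 genes of perception and kinase relay 0 rose and 3 fell. Of 12 transcription factors and partners 2 rose and 4 fell, and of 7 growth-related bHLH genes 1 rose and 2 fell. No gene of the lists was called by edgeR between the genotypes in either light condition or in the difference of the responses. The 7 genes with too few counts to test, such as the BRI1 homologue BRL1 (2 to 12 counts per library), are not reported further.

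Of 9 tested synthesis genes 1 rose in the wild type and 0 in the double mutant, with medians of 0.08 and 0.01, where 10.6% and 10.7% of all tested genes rose. That gene was the sterol desaturase gene DWF7 (AT3G02580), at 41.9 ± 3.15 CPM in the dark and 54.4 ± 4.36 CPM in red light in the wild type (log2 0.37 ± 0.12, edgeR adjusted p = 0.0380). DWF7 in the double mutant was at 52.7 ± 9.59 and 53.6 ± 3.83 CPM. The wild type call ended with DESeq2 (adjusted p = 0.0752) and without wild type dark replicate 2 or 3 or wild type red replicate 2 or 3 (edgeR adjusted p = 0.0608 to 0.191). Of 5 inactivation genes 1 rose in each genotype, beside the same 10.6% and 10.7% of all genes, with medians of 0.18 and 0.37. UGT73C5 (AT2G36800), a glucosyltransferase that conjugates brassinosteroids, rose from 28.8 ± 3.42 to 129.6 ± 4.92 CPM in the wild type (SD, n = 3; 4.44-fold, log2 2.15 ± 0.11, edgeR adjusted p = 7.13e-13). Double mutant levels rose from 31.95 ± 6.40 to 135 ± 6.48 CPM (4.30-fold, 2.10 ± 0.11, edgeR adjusted p = 8.81e-13). So of the genes that inactivate the hormone BAS1 fell while UGT73C5 rose, and no dark library of UGT73C5 overlapped a red light library. UGT73C5 has close relatives beside it in the genome, and the sources used here do not say how a read that matched several of them was treated. Over both genotypes 3 of the 5 rose, where 14.9% of all tested genes did. These were UGT73C5, its neighbour UGT73C6 (0.45 ± 0.14, edgeR adjusted p = 0.0222) and the reductase-like gene BEN1 (0.28 ± 0.09, edgeR adjusted p = 0.0290), the last 2 named after their values were seen. UGT73C6 overlaps a long noncoding RNA on the other strand over 1694 bases. The UGT73C6 call ended in 3 of 18 alternatives, without wild type dark replicate 2, wild type red replicate 2 (0.29) or double mutant red replicate 2 (edgeR adjusted p = 0.0534 to 0.102). The BEN1 call ended in 7 of 18. Without the 2 dark libraries that stood apart BEN1 was at 0.16 (edgeR adjusted p = 0.193), and its call also ended with DESeq2 (adjusted p = 0.0770) and without wild type dark replicate 1, wild type red replicate 2 or 3, double mutant dark replicate 3 or double mutant red replicate 1 (edgeR adjusted p = 0.0528 to 0.0980).

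In the relay from receptor to nucleus, 0 of 14 tested genes rose and 2 fell in the wild type, and 0 rose and 1 fell in the double mutant, with medians of −0.05 and −0.15. Of all tested genes 10.6% rose and 4.68% fell in the wild type, and 10.7% and 5.27% did in the double mutant. BIN2 (AT4G18710), the kinase that holds BZR1 and BES1 inactive, was at 145 ± 11.3 CPM in the dark and 108 ± 8.76 CPM in red light in the wild type (log2 −0.42 ± 0.09, edgeR adjusted p = 0.00100). Double mutant levels went from 156 ± 11.02 to 113 ± 2.78 CPM (−0.47 ± 0.08, edgeR adjusted p = 2.17e-04). Its relative BIL1 (AT2G30980) fell in the wild type from 68.9 ± 6.53 to 54.7 ± 3.06 CPM (−0.33 ± 0.10, edgeR adjusted p = 0.0235). BIL1 stood at −0.15 ± 0.10 in the double mutant (edgeR adjusted p = 0.355). The wild type call of BIL1 ended with DESeq2 (adjusted p = 0.0624) and without wild type dark replicate 2 or 3 or wild type red replicate 2 or 3 (edgeR adjusted p = 0.0504 to 0.151). BIN2 overlaps AT4G18720 on the same strand by 1284 bases, and that gene had 0 counts in every library. BIL1 overlaps ASP1 on the other strand by 26 bases, and ASP1 had up to 272 counts in a library.

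**Figure D4:**
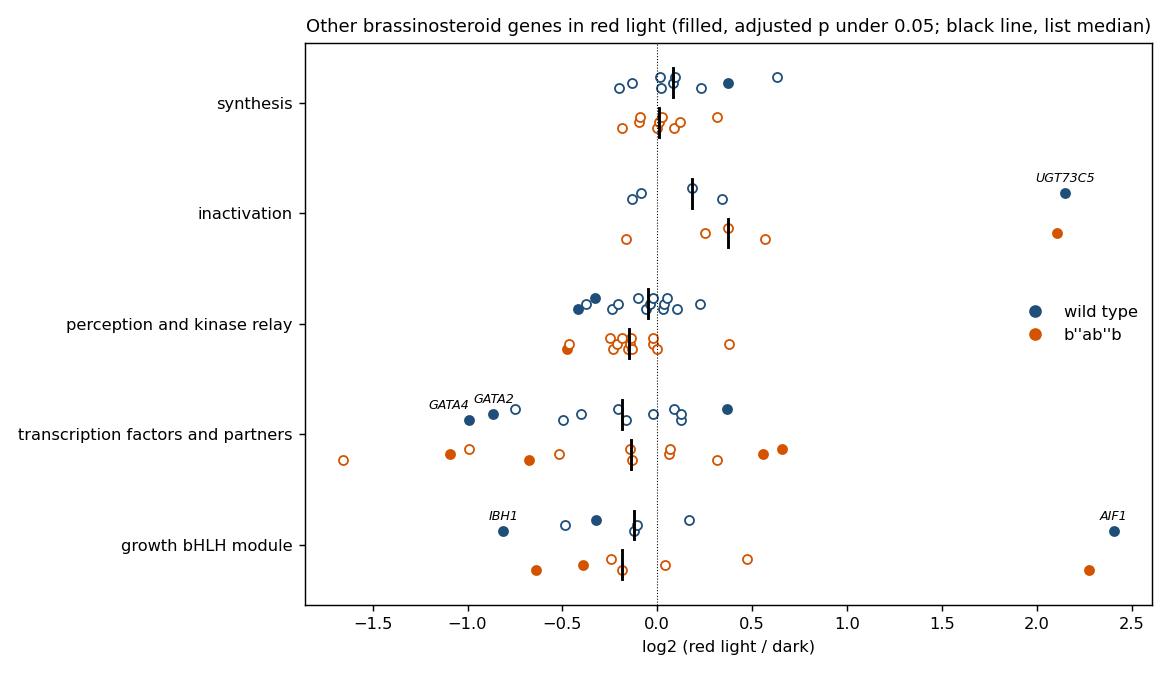
Log2 change from darkness to red light (horizontal axis) of the 47 other tested pathway genes in 5 lists (vertical axis; small offsets only separate points) in the wild type and in b''ab''b, with filled points at an adjusted p under 0.05 and a black line at each list's median. UGT73C5 and AIF1 lie above 2 in both genotypes, far from the medians of their lists, which lie between −0.19 and 0.37.

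Among transcription factors and partners of the pathway, 1 of 12 tested genes rose and 2 fell in the wild type, and 2 rose and 2 fell in the double mutant, with medians of −0.19 and −0.14. The shares of all tested genes were 10.6% higher and 4.68% lower in the wild type and 10.7% and 5.27% in the double mutant. GATA2 (AT2G45050), a factor that links brassinosteroid and light control of seedling growth, fell together with its close relative GATA4 (AT3G60530). GATA4 went from 142 ± 15.03 to 71.3 ± 3.14 CPM in the wild type (log2 −0.99 ± 0.09, edgeR adjusted p = 1.20e-08) and from 140.3 ± 10.7 to 65.5 ± 3.01 CPM in the double mutant (−1.09 ± 0.09, edgeR adjusted p = 2.57e-09). GATA2 went from 29.6 ± 4.42 to 16.2 ± 1.41 CPM in the wild type (−0.86 ± 0.17) and from 27.7 ± 7.74 to 16.7 ± 1.87 CPM in the double mutant (−0.68 ± 0.17). Without double mutant dark replicate 1 the GATA2 call in that genotype ended (−0.47, edgeR adjusted p = 0.0625). BIM1 (AT5G08130), a bHLH partner of BES1, rose from 52.98 ± 4.67 to 68.6 ± 1.22 CPM in the wild type (0.37 ± 0.09, edgeR adjusted p = 0.00611) and from 50.8 ± 3.12 to 74.4 ± 1.45 CPM in the double mutant (0.56 ± 0.09, edgeR adjusted p = 7.40e-05). BEH1 (AT3G50750), a homologue of BZR1, rose in the double mutant from 11.3 ± 3.23 to 17.1 ± 2.63 CPM (0.66 ± 0.20, edgeR adjusted p = 0.0255) and stood at 0.12 ± 0.20 in the wild type. The difference of its responses was 0.53 ± 0.28 and did not pass (edgeR adjusted p = 1.0000). The BEH1 call ended with DESeq2 (adjusted p = 0.0698), without double mutant dark replicate 2 or 3 or red replicate 1 (edgeR adjusted p = 0.0893 to 0.162), and without the 2 dark libraries that stood apart (0.0987). CESTA (AT1G25330), a bHLH factor closely related to the BEE proteins and named after its values were seen, had 2 to 18 counts per library. CESTA overlaps AT1G25320 on the other strand by 122 bases. That gene had up to 76 counts in a library, and how reads in the overlap were treated is not known. Over both genotypes CESTA stood 1.20 lower in red light on the log2 scale (−1.20 ± 0.41, edgeR adjusted p = 0.0341). The call ended in 9 of 17 alternatives (adjusted p = 0.0510 to 0.134). Among these were the omission of wild type dark replicate 2 or 3, wild type red replicate 2 or 3, double mutant dark replicate 1 or 2 and double mutant red replicate 2 or 3.

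In the growth-controlling bHLH module 1 of 7 tested genes rose and 2 fell in each genotype, with medians of −0.12 and −0.18 and means of 0.10 and 0.19, which differ in sign from the medians. Among all tested genes 10.6% rose and 4.68% fell in the wild type, against 10.7% and 5.27% in the double mutant. AIF1 (AT3G05800), an atypical bHLH protein that restrains growth, rose most. It went from 19.9 ± 0.666 to 105 ± 3.90 CPM in the wild type (5.30-fold, log2 2.41 ± 0.10, edgeR adjusted p = 1.83e-14) and from 22.3 ± 2.29 to 108 ± 2.28 CPM in the double mutant (4.84-fold, 2.28 ± 0.10, edgeR adjusted p = 2.82e-14). IBH1 (AT2G43060), another inhibitor of growth-promoting bHLH factors, fell from 11.7 ± 1.24 to 6.60 ± 0.520 CPM in the wild type (−0.81 ± 0.19, edgeR adjusted p = 0.00443). IBH1 fell in the double mutant from 11.1 ± 0.667 to 7.14 ± 0.678 CPM (−0.64 ± 0.19, edgeR adjusted p = 0.0240). So both inhibitors changed, in opposite directions. PRE6 (AT1G26945), a small bHLH protein of the same module, fell by 0.32 in the wild type and by 0.39 in the double mutant on the log2 scale (edgeR adjusted p = 0.0265 and 0.00656). The double mutant call of IBH1 ended in 7 of 19 alternatives (adjusted p = 0.0574 to 0.120), DESeq2 among them (0.120), without the filter on low counts (0.0598), without the 2 dark libraries that stood apart (0.0892), and without double mutant dark replicate 1 or 3 or red replicate 1 or 3 (edgeR adjusted p = 0.0574 to 0.110). The wild type call of PRE6 ended with DESeq2 (adjusted p = 0.0821), without the filter on low counts (0.0542), with the wild type groups alone (0.0537), and without wild type dark replicate 2 or 3 or wild type red replicate 2 or 3 (edgeR adjusted p = 0.0635 to 0.161).

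Genes with the most similar pattern were named for the 5 members called in the mean red light response, by Pearson's r of log2 CPM over the 12 libraries among up to 13396 genes whose log2 CPM averaged 3 or more. These values share the light contrast, the libraries and their depth, and are a description. The nearest to BEE3 were HAT3 (r = 0.956), LBD41 (0.951) and PUP14 (0.94). For BAS1 they were BT1 (0.982), ST2B (0.962) and AT4G04972 (0.955), and for BR6OX2 ARD4 (0.983), AT2G39950 (0.974) and AT4G02940 (0.969). BEE2 was most like UMAMIT13 (0.968), TDT (0.95) and Phox4 (0.947), and BRI1 most like MUM2 (0.933), NINJA (0.924) and AGP2 (0.904).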

How the data were processed

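RNA of 12 seedling libraries was sequenced as 3′ tags from total RNA, per the labels' protocols. The authors deposited raw counts per gene and library, with no normalization, and per the submitters' processing notes FastQC, HISAT2, HTSeq and edgeR were used with the build TAIR10, without versions or settings. The 5 HTSeq summary lines were left out; ambiguous reads amounted to between 0.943 and 1.28% of gene counts, and the line for reads on no gene is broken across columns, so its share could not be read per library. Columns were matched to samples by name and title. All 10 loci and all 32548 locus identifiers matched TAIR10.1 in RefSeq, which supplied names, positions and sequences.

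Tests used edgeR 4.0.16 in R 4.3.3 (TMM factors, filterByExpr with a minimum count of 10, 1 quasi-likelihood fit over 12 libraries with a term per group, Benjamini-Hochberg adjustment over 18487 genes, threshold 0.05). The standard error of a log2 change is its size over the square root of F, and 95% intervals are approximate. CPM use TMM-scaled library sizes. The fit was tested on simulated data. Counts of every pair of replicates differed by more than sampling noise. The floors cover counting error only, since PCR copies cannot be told from molecules.

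The members, the 5 lists and the alternatives were chosen with earlier results of these data known. Named were all members, the B''α and B''β genes, from each list up to 6 genes called in any of the first 5 comparisons, and the 3 genes most like each member called in the mean red light response. Alternatives were DESeq2 1.42.0, RLE factors, tests of all genes without a count filter or of those averaging 5 CPM or more, a block for the replicate number, fits of only the groups compared, each library left out, and both dark libraries that stood apart left out. Tables and figures used python 3.11.15, pandas 2.3.3, numpy 2.4.6 and matplotlib 3.10.9.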

Additional observations from a re-analysis of the deposited data

How the results depend on the processing

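Of 5 members called in the wild type, 3 were called with DESeq2, 3 with the replicate number as a block, and 2 to 5 with libraries left out. In the double mutant 4 were called, and 2 to 4 with libraries left out. Over both genotypes it was 4 to 6 with libraries left out. The shares of all tested genes called in these alternatives are not given, so a lower count is no result about the members. The counts for genotype and for the difference of responses were 0 in every alternative. BEE3 kept its call in both genotypes in all 19 alternatives (−2.41 to −1.83 in the wild type and −2.70 to −1.71 in the double mutant). Of 1300 values of members over the alternatives 33 lost a call, 6 gained one and 0 changed sign while called; 80 changed sign with no call in either. Of 489 values of other pathway genes 49 lost a call. CPD gained a call over both genotypes without the 2 dark libraries that stood apart (−0.18, edgeR adjusted p = 0.0225). The replicate block ended the wild type calls of BEE2 (adjusted p = 0.0513) and BRI1 (0.0528), and the cause was not tested. Same-numbered libraries did not deviate together (correlation of deviations −0.166 to 0.15). Links between libraries of different number, such as the 2 dark libraries that stood apart, were not tested. Scaling moved the median of all genes by less than 0.1 on the log2 scale. BEE3 in red light, at 2 to 15 counts, is limited by depth.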
